A study of Homo sapiens with 12 samples.

Results

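The E2F and DP transcription factors were followed in HL-60 cells, a human acute myeloid leukaemia cell line, after a short exposure to all-trans retinoic acid (ATRA) or the CDK4/6 inhibitor palbociclib. The 10 genes were chosen by name from the 58233 genes of the expression table. They were the activators E2F1, E2F2 and E2F3, the repressors E2F4, E2F5, E2F6, E2F7 and E2F8, and the DP partners TFDP1 and TFDP2. Poly(A) RNA was sequenced from 4 groups of 3 libraries, all of them wild-type HL-60 cells grown in RPMI with fetal calf serum. The groups were untreated cells, cells with 100 nM ATRA, cells with 500 nM palbociclib, and cells with both agents at the same doses. Treated cells were collected after 3 h. The labels name no vehicle for the untreated cells, and they do not say whether the 3 libraries of a group came from separate cultures, so p-values measure only the spread between these libraries.

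E2F proteins bind promoters of cell cycle genes, most of them as a dimer with a DP protein. In resting or early G1 cells the retinoblastoma protein and its relatives p107 and p130 hold E2F factors in a repressive state. Cyclin D with CDK4 or CDK6 phosphorylates these pocket proteins, which frees the activator E2F proteins to switch on genes of S phase entry, among them several E2F genes themselves. Palbociclib blocks CDK4 and CDK6 at the start of that chain, and ATRA drives myeloid differentiation.

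Promoter sequence is shown for the activators because E2F1, E2F2 and E2F3 hold E2F motifs close to the start of transcription, and for E2F4 and E2F7 because the same search found none in them. Each line gives the 90 bases before the RefSeq start on GRCh38.p14, 5′ to 3′ on the strand of the gene, with motif matches in capitals.
E2F1: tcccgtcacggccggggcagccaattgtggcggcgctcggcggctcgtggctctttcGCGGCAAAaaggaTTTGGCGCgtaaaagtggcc
E2F2: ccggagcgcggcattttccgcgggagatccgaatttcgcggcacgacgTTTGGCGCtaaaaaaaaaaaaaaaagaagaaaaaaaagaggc
E2F3: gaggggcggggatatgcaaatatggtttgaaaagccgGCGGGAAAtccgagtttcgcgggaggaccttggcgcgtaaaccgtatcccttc
E2F4: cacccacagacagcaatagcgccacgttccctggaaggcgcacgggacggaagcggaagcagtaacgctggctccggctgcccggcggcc
E2F7: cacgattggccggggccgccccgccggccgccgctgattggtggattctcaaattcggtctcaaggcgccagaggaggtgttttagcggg
The stretches lie at chr20:33686386-33686475 on the minus strand for E2F1, chr1:23531234-23531323 on the minus strand for E2F2, chr6:20401789-20401878 on the plus strand for E2F3, chr16:67192065-67192154 on the plus strand for E2F4 and chr12:77065570-77065659 on the minus strand for E2F7. The motifs searched on both strands were TTTCCCGC, TTTCGCGC, TTTGCCGC and TTTGGCGC, in a window from 250 bases before to 50 bases after the start. E2F1 held TTTGGCGC on its own strand 20 bases before the start and TTTGCCGC on the opposite strand 33 bases before it. E2F2 held TTTGGCGC 42 bases before the start. E2F3 held TTTCCCGC on the opposite strand 53 bases before the start, and TFDP1 held TTTCGCGC on the opposite strand 120 bases before it. Of the 8 members with a promoter in the RefSeq table, 4 held a match, beside 1090 of 27305 genes in the whole table (3.99%). E2F4, E2F6, E2F7 and TFDP2 held none of the 4 motifs in this window. E2F5 and E2F8 have no entry in the table used. A match is a stretch of letters and no measurement of binding.

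The deposited values are RPKM, read numbers scaled to the length of the gene and the size of the library, rounded to whole numbers. A step of 1 RPKM is therefore a large part of the level of a low gene. The summed RPKM of a library ranged from 358455 to 390247, and the number of reads cannot be read from the table. Of 9 myeloid markers, 8 to 9 stood at 1 RPKM or more in each group, led by MPO at 1077 to 1579 RPKM, with ELANE at 0 to 1 RPKM. Of 18 markers of other blood and tissue cells, 15 to 16 were listed at 0 in each group, and CD4 stood at 24 to 34 RPKM and PECAM1 at 2 to 6 RPKM. A list of 6 genes that answer to retinoids summed to 2 to 4 RPKM in libraries without ATRA and to 61 to 79 RPKM in libraries with it, through DHRS3, HIC1 and CD38, while CYP26A1, RARB and TGM2 were listed at 0 throughout. The RNA came from whole cultures, so fewer cells in a cell cycle phase and less RNA per cell cannot be told apart.

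The members differed widely in level. RPKM is given per length, but the gene lengths behind it are not stated, and the order between genes depends on them. In untreated cells TFDP1, the main DP partner, stood at 105 ± 3.51 RPKM (SD, n = 3) and E2F4, a repressor that binds p107 and p130, at 51.3 ± 3.06 RPKM. E2F3 followed at 17.0 ± 1.0 RPKM and E2F1 at 12.7 ± 1.15 RPKM, and the 4 ranges did not overlap. E2F8 at 7.33 ± 0.577 RPKM and E2F6 at 7 RPKM in all 3 libraries could not be put in order. Below them came E2F7 at 4.67 ± 0.577 RPKM, then E2F5 at 2.33 ± 0.577 RPKM, and E2F2 and TFDP2 at 2 RPKM in every untreated library. E2F5 could not be told from E2F2 or TFDP2. All 10 members reached 1 RPKM in at least 3 libraries, while 6 of them, E2F1, E2F3, E2F4, E2F6, E2F8 and TFDP1, reached the 5 RPKM in at least 3 libraries that the test across all genes required. TFDP3, a DP relative outside the list, was listed at 0 in every library.

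**Figure D1:**
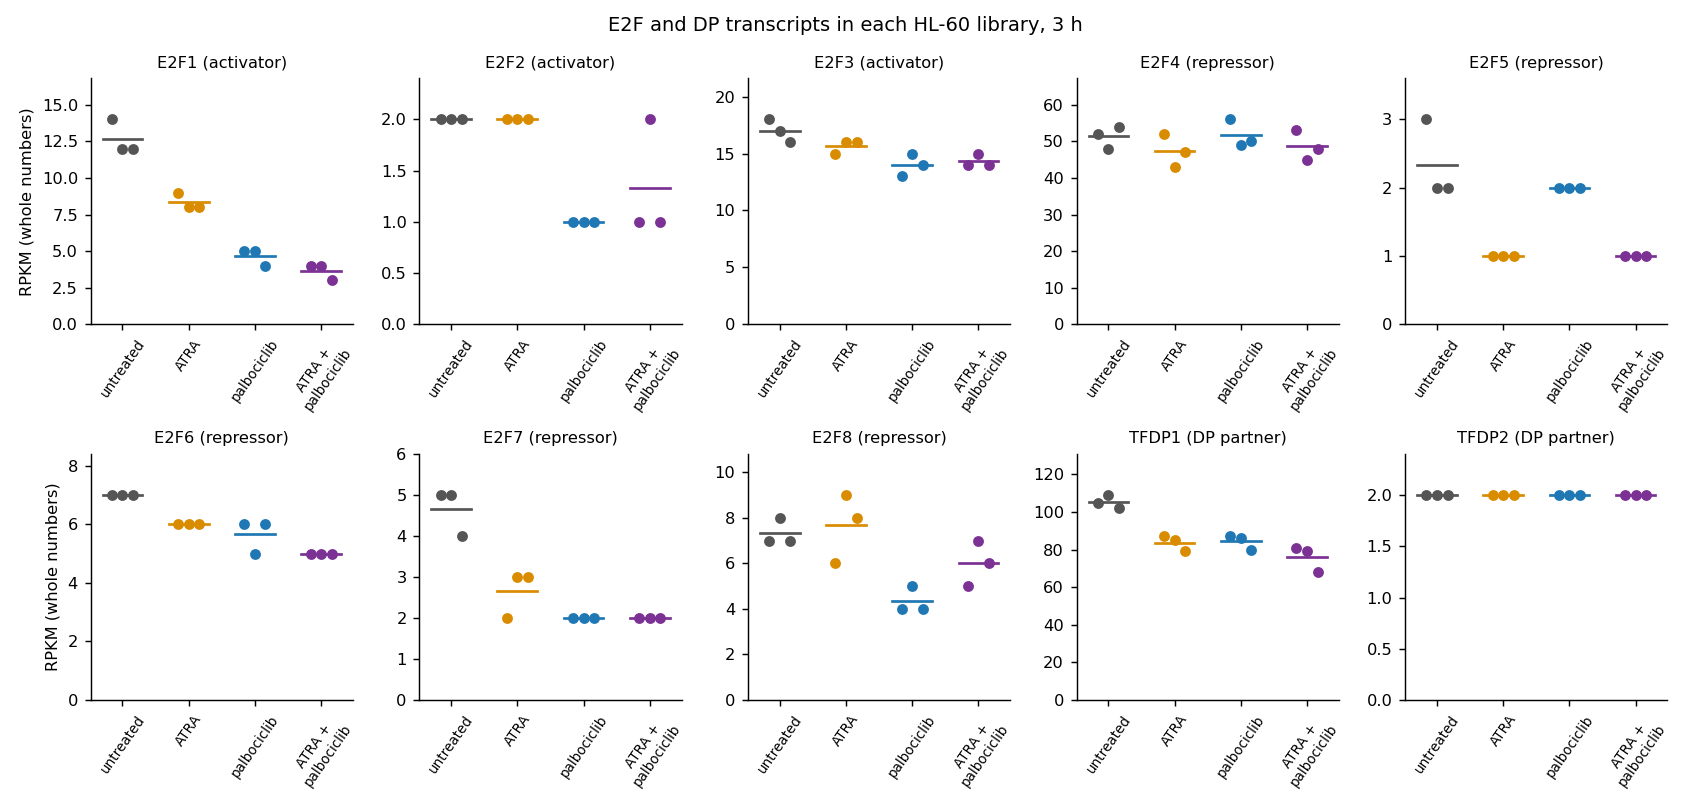
RPKM of each of the 10 E2F and DP genes (vertical axes) in the 12 libraries, with the 4 treatments along the horizontal axes and points for single libraries. E2F1 lay at 12 to 14 RPKM in untreated libraries and at 3 to 4 RPKM with both agents, while E2F4 lay between 43 and 56 RPKM over all groups.

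Of the activators, E2F1 had the lowest levels relative to untreated cells among those tested. E2F1 lies at chr20:33675477-33686385 on the minus strand of GRCh38 (GENCODE annotation), and it drives S phase genes when released from the retinoblastoma protein. The untreated libraries held 14, 12 and 12 RPKM, the ATRA libraries 9, 8 and 8 RPKM, the palbociclib libraries 5, 5 and 4 RPKM, and the libraries with both agents 4, 4 and 3 RPKM. Every untreated library was above every ATRA library, every ATRA library was above every palbociclib library, and the ranges of palbociclib alone and of both agents met at 4 RPKM.

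E2F1 fell with palbociclib. The mean fell to 0.368 of the untreated mean, and rounding of the deposited values to the nearest whole number would allow 0.316 to 0.425. The log2 fold change was -1.42 with a standard error of 0.13 (limma, Benjamini-Hochberg adjusted p = 0.000287). E2F1 was the 1 of 6 tested members that passed the threshold of 0.001 in this comparison, where 0.486% of the 7820 tested genes were called lower and 0.499% in either direction. The call was lost, with adjusted p-values of up to 0.00339, when any 1 of the 6 untreated or palbociclib libraries was left out, and the adjusted p was 0.0109 when these 6 libraries were fitted alone. Averaged over cells with and without ATRA, the log2 fold change with palbociclib was -1.30 (95% interval -1.50 to -1.10, limma adjusted p = 4.14e-05), again 1 of 6 members against 0.563% of all tested genes called lower and 0.575% in either direction. This averaged value stayed under 0.001 without any single library, with adjusted p-values of 7.70e-05 to 0.000447.

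With both agents E2F1 fell to 0.289 of the untreated mean, a log2 fold change of -1.77 with a standard error of 0.13 (limma adjusted p = 5.45e-06, and 0.00173 with the 2 groups fitted alone, which ended the call). With ATRA alone E2F1 stood at 0.658 of the untreated mean, and the log2 fold change of -0.60 (95% interval -0.88 to -0.31) had a limma adjusted p of 0.00837. None of the 6 tested members passed 0.001 between ATRA and untreated cells, where 4.72% of all tested genes did and 1.94% were called lower. Still, 3 of 6 members had an unadjusted limma p under 0.05, as had 33.1% of all tested genes. Other settings changed the count of members called with ATRA, as given in the last section.

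Where palbociclib was added to ATRA, E2F1 stood at 0.44 of its ATRA level, with a log2 fold change of -1.17 (95% interval -1.46 to -0.88, limma adjusted p = 0.00695). This fit did not pair libraries with the same replicate number. Over 23 alternative settings, fits with the replicate block among them, the limma adjusted p ranged from 0.00299 to 0.0680. None of the 7820 tested genes was called in this comparison (0%), while 20 of 14003 genes were called with the limit at 1 RPKM. At an unadjusted p under 0.05, limma gave 2 of 6 members, E2F1 and E2F6, beside 3.67% of all tested genes. Where ATRA was added to palbociclib, E2F1 stood at 0.786 of its palbociclib level, and rounding would allow 0.613 to 1. The log2 fold change was -0.34 (95% interval -0.63 to -0.06) with a limma adjusted p of 0.128. E2F1 was lower in every pair of libraries with the same replicate number, at 4, 4 and 3 RPKM against 5, 5 and 4 RPKM. Over 23 alternative settings the limma adjusted p of this comparison ranged from 0.0186 to 0.371.

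E2F3, the other activator that could be tested, differed less. It lies at chr6:20401879-20493714 on the plus strand. It stood at 18, 17 and 16 RPKM in untreated libraries and at 15, 16 and 16 RPKM with ATRA. With palbociclib it stood at 13, 15 and 14 RPKM, and with both agents at 14, 15 and 14 RPKM. Both groups with palbociclib lay below all untreated libraries, whereas the ATRA libraries met the untreated ones at 16 RPKM. The log2 fold change with palbociclib was -0.28 (95% interval -0.43 to -0.13, limma adjusted p = 0.0494), and that with both agents was -0.24 (limma adjusted p = 0.0209), so E2F3 did not pass 0.001.

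E2F2, at chr1:23506438-23531233 on the minus strand, was too low for the test across genes. It was listed at 2 RPKM in all 6 libraries without palbociclib, at 1 RPKM in the 3 palbociclib libraries, and at 1, 2 and 1 RPKM with both agents. An exact permutation test within ATRA status, two-sided over 400 arrangements, gave p = 0.02 for palbociclib with a log2 difference of -0.78. The same exact test gave p = 1 for ATRA. It was one of 8 such tests on the 4 low members, the smallest p they allow is 0.005, and the step of 1 RPKM leaves the true ratio for palbociclib alone anywhere from 0.2 to 1.

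**Figure D2:**
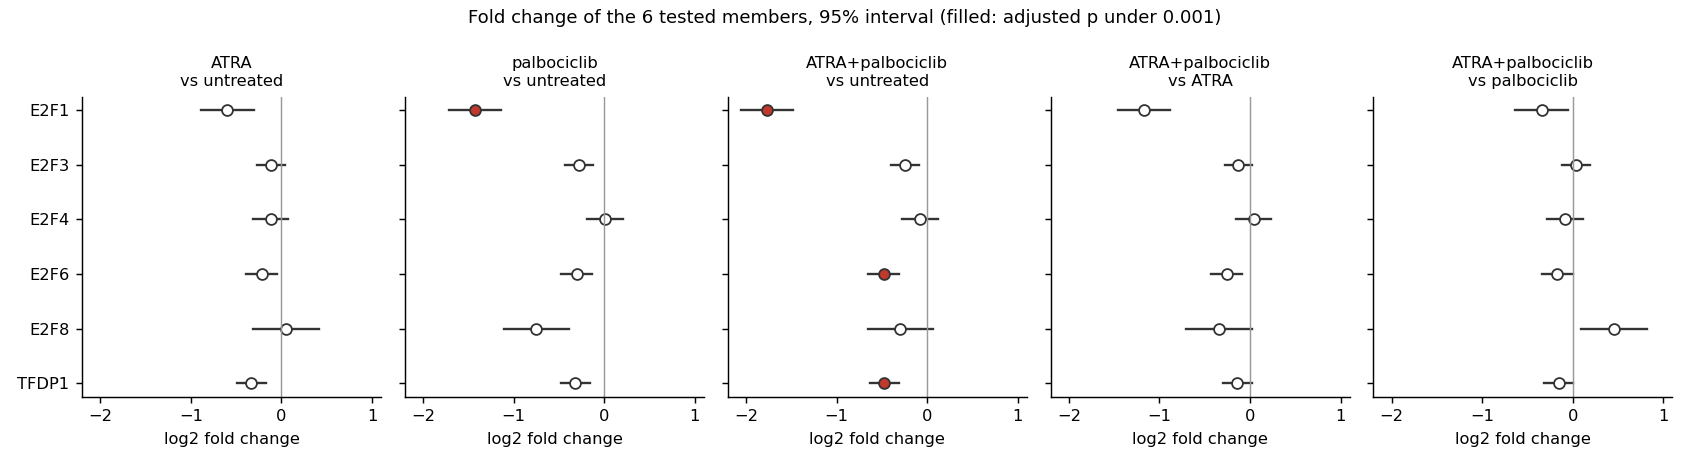
Log2 fold changes of the 6 tested members, with 95% intervals, for each comparison between groups on the horizontal axis in log2(RPKM + 0.1). E2F1 lay farthest below 0 with palbociclib (-1.42) and with both agents (-1.77), while every interval of E2F4 spanned 0.

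Of the repressors, E2F4 was called in no comparison. E2F4 lies at chr16:67192155-67198918 on the plus strand, and it was the most abundant E2F gene in every library. The untreated libraries held 52, 48 and 54 RPKM and the ATRA libraries 52, 43 and 47 RPKM. With palbociclib it stood at 56, 49 and 50 RPKM and with both agents at 53, 45 and 48 RPKM. The groups overlapped in all 5 comparisons. Within the same-numbered treated libraries, which deviated together, E2F4 was lower with both agents than with palbociclib alone in 3 of 3 pairs (log2 fold change -0.09, limma adjusted p = 0.0324 in the fit of the treated libraries with the replicate block) and higher than with ATRA alone in 3 of 3 (log2 fold change 0.04, adjusted p = 0.439). Averaged over ATRA status, the log2 fold change with palbociclib was 0.02 with a 95% interval of -0.11 to 0.16 (limma adjusted p = 0.899).

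E2F6 represses through Polycomb partners and does not bind pocket proteins. It lies at chr2:11444375-11466177 on the minus strand. All untreated libraries held 7 RPKM, all ATRA libraries 6 RPKM, the palbociclib libraries 6, 5 and 6 RPKM and all libraries with both agents 5 RPKM. E2F6 fell with both agents, by 0.48 on the log2 scale (standard error 0.077, limma adjusted p = 0.000997), which lies just under the threshold. Leaving out a single library, in 10 of 12 cases, centring each library on its median, or fitting the 2 groups alone brought the adjusted p above 0.001, up to 0.00817. With ATRA alone the log2 fold change was -0.22 (limma adjusted p = 0.0699) and with palbociclib alone -0.31 (limma adjusted p = 0.0542). These differences are 1 or 2 steps of the rounded scale.

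The atypical repressors E2F7 and E2F8, which bind DNA without a DP partner and are themselves induced late in G1, were both lower in every palbociclib library than in every untreated one. E2F8, at chr11:19224063-19241620 on the minus strand, held 7, 8 and 7 RPKM in untreated libraries, 6, 9 and 8 RPKM with ATRA, 4, 5 and 4 RPKM with palbociclib and 5, 7 and 6 RPKM with both agents. Its palbociclib libraries lay below all untreated and all ATRA libraries, and its libraries with both agents overlapped every other group. The log2 fold change was -0.75 with palbociclib (95% interval -1.11 to -0.39, limma adjusted p = 0.0321) and -0.30 with both agents (limma adjusted p = 0.204). Between both agents and palbociclib alone it was 0.46 (95% interval 0.09 to 0.82, limma adjusted p = 0.108), and it was higher in 3 of 3 same-numbered pairs (adjusted p = 0.0101 in the blocked fit of the treated libraries), so no comparison of E2F8 passed 0.001.

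E2F7, at chr12:77021248-77065569 on the minus strand, held 5, 5 and 4 RPKM in untreated libraries and 2, 3 and 3 RPKM with ATRA. It was listed at 2 RPKM in all 6 libraries with palbociclib, alone or with ATRA. Each treated group lay below all untreated libraries. The exact permutation test gave p = 0.02 for palbociclib (log2 difference -0.77) and p = 0.1 for ATRA (log2 difference -0.40). With the limit for testing lowered to 1 RPKM, limma called E2F7 lower with both agents (adjusted p = 0.000599, with 2.87% of 14003 genes called lower) and not with palbociclib alone (adjusted p = 0.00289, with 0.614% called lower).

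E2F5, a relative of E2F4 on chromosome 8, stood at its lowest level in the libraries with ATRA. It held 3, 2 and 2 RPKM in untreated libraries and 2 RPKM in each palbociclib library, and 1 RPKM in all 6 libraries with ATRA. The exact permutation test within palbociclib status gave a log2 difference of -1.03 for ATRA with p = 0.005, the smallest p it allows, and p = 1 for palbociclib. With the limit at 1 RPKM, limma called E2F5 lower with ATRA (adjusted p = 0.000480, with 1.74% of 14003 genes called lower) and with both agents (adjusted p = 0.000363), where its replicates were identical after rounding. Of the exonic bases of E2F5, 997 (16.6%) are shared with RBIS on the opposite strand, which stood at 7 to 10 RPKM. Reads were counted with the default options of htseq-count, which take strand into account, but the sources used here do not say whether the kit keeps strand, and the part of RBIS in the E2F5 value was not tested.

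Of the DP partners, TFDP1 was the abundant one. It lies at chr13:113584721-113641473 on the plus strand and encodes the subunit that E2F1 to E2F6 need for stable binding to DNA. It held 105, 109 and 102 RPKM in untreated libraries, 87, 85 and 79 RPKM with ATRA, 87, 86 and 80 RPKM with palbociclib and 81, 79 and 68 RPKM with both agents. Every treated library was below every untreated one, and the 3 treated groups overlapped one another. Of the same-numbered pairs, 3 of 3 were lower with both agents than with palbociclib alone (limma adjusted p = 0.0154 in the blocked fit of the treated libraries). TFDP1 fell with both agents to 0.722 of the untreated mean, by 0.47 on the log2 scale (standard error 0.072, limma adjusted p = 0.000659). With ATRA alone it stood at 0.794 (limma adjusted p = 0.00798) and with palbociclib alone at 0.801 of the untreated mean (limma adjusted p = 0.0363). Leaving out a single library ended the call with both agents in 11 of 12 cases, with adjusted p-values of up to 0.00427, and so did 5 other settings, among them median centring (0.0180), the 2 groups alone (0.0125) and the limit at 1 RPKM (0.00155). TFDP2, at chr3:141944428-142149544 on the minus strand, was listed at 2 RPKM in every library.

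Between both agents and untreated cells 3 of the 6 tested members, E2F1, E2F6 and TFDP1, were called lower, beside 4.28% of all tested genes called lower and 8.04% called in either direction. Counted by libraries that did not overlap, 4 of 6 lay lower with both agents (20.6% of all tested genes), 5 of 6 with palbociclib (9.48%) and 3 of 6 with ATRA (17.3%). Between both agents and ATRA 2 of 6 lay lower without overlap (2.52%), and between both agents and palbociclib none did (9.86%). The median log2 fold change of the tested members was -0.31 with palbociclib, -0.17 with ATRA and -0.38 with both agents, beside 0, -0.01 and -0.01 over all tested genes. These 3 comparisons share the untreated libraries.

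Between both agents and palbociclib alone no member passed 0.001 (3.11% of all tested genes did), and 3 of 6 had an unadjusted limma p under 0.05, E2F1 and E2F6 with negative and E2F8 with positive values, beside 23.8% of all tested genes. Averaged over palbociclib status, ATRA gave log2 fold changes of -0.47 for E2F1 (limma adjusted p = 0.00300) and -0.24 for TFDP1 (limma adjusted p = 0.00460). Again no tested member passed 0.001, against 9.62% of all tested genes. At an unadjusted p under 0.05 this averaged comparison gave 3 of 6 members and 39.0% of all tested genes.

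Departure from additivity asks whether palbociclib did the same on the log2 scale with ATRA as without it. No member departed at the threshold (0% of all tested genes called), and at an unadjusted limma p under 0.05 there were 0 of 6 members and 3.02% of all tested genes. The values of the 6 tested members were all above 0, with a median of 0.17. Of all tested genes 50.4% lay below 0, and their median was 0. For E2F1 the departure was 0.25 with a 95% interval of -0.16 to 0.66, and for E2F8 it was 0.41 with an interval of -0.10 to 0.92, so an additive response and a departure of that size could not be told apart with 3 libraries a group.

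The activators and repressors were summed to compare the classes in each library. The activator sum was 34, 31 and 30 RPKM in untreated libraries and 26 RPKM in each ATRA library. It was 19, 21 and 19 RPKM with palbociclib and 19, 21 and 18 RPKM with both agents. The repressor sum went from 72.7 ± 2.31 RPKM (SD, n = 3) in untreated cells to 64.7 ± 2.52 RPKM with ATRA, 65.7 ± 3.79 RPKM with palbociclib and 62.7 ± 3.06 RPKM with both agents. The activator to repressor ratio was 0.436 ± 0.0277 in untreated cells and 0.402 ± 0.0158 with ATRA, and these ranges overlapped. With palbociclib it was 0.301 ± 0.0311 and with both agents 0.309 ± 0.0352, and every library with palbociclib was below every library without it. E2F4 made up 70.6% of the untreated repressor sum and 78.6% with palbociclib. E2F3 made up 53.7% of the untreated activator sum and 71.2% with palbociclib. With E2F4 left out of the repressors, the ratio with palbociclib was 0.946 of the untreated one, and E2F7 and E2F8 were then among the 4 repressors summed. With mean log2 values per gene in place of summed RPKM, which gives each member of a class the same weight and was chosen after seeing the data, the fold of the untreated ratio was 0.759 with palbociclib, 0.841 with both agents and 1.15 with ATRA, so the direction with ATRA depended on the scale. No test was made on these sums.

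**Figure D3:**
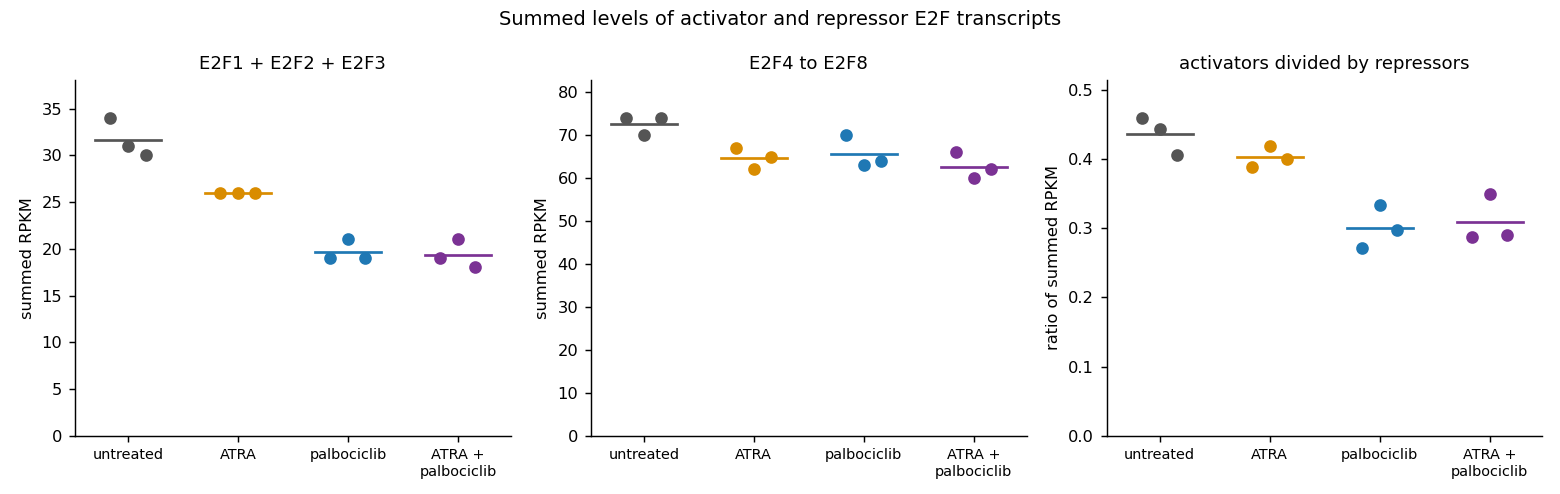
Summed RPKM of the activators E2F1 to E2F3 and the repressors E2F4 to E2F8, and the ratio of the sums, in each of the 12 libraries by treatment. The ratio stood at 0.405 to 0.459 in untreated libraries and at 0.271 to 0.350 in the 6 libraries with palbociclib. On mean log2 values per gene, chosen after seeing the data, it lay lower with palbociclib, alone or with ATRA, as well. With E2F4 left out of the repressors it stood at 0.946 of the untreated ratio with palbociclib and 0.931 with both agents. Summed log2 values, which depend on the number of genes in each class, gave 0.854 and 1.43.

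Other genes of the pathway were read from lists written from general knowledge, with earlier results of these data known. Upstream of the pocket proteins, none of the 6 tested genes of the cyclin D, CDK4/6 and inhibitor list was called with palbociclib or with both agents, and the median log2 fold change with palbociclib was -0.01. At an unadjusted limma p under 0.05 there were 2 of 6 with palbociclib (17.4% of all tested genes) and 4 of 6 with both agents (40.5%). CDKN1A, which encodes the inhibitor p21, was too low to test and held 1 RPKM in all 6 libraries without ATRA and 3 to 5 RPKM in the 6 libraries with ATRA. CDKN2D, also too low, held 1, 1 and 1 RPKM untreated, 4, 4 and 3 with ATRA, 2, 1 and 1 with palbociclib and 4, 4 and 4 with both agents. Of the other untested genes of this list, CCND1 held 2, 2 and 2 RPKM untreated and 1, 1 and 2 RPKM with ATRA. CDKN2A held 1 to 2 RPKM, and CDKN1C and CDKN2B were listed at 0. Of the list of pocket proteins, MuvB subunits and MYBL2, none of 7 tested was called in the same comparisons, and the median with palbociclib was -0.27. Here 4 of 7 had an unadjusted limma p under 0.05 with palbociclib (17.4% of all tested genes) and 5 of 7 with both agents (40.5%). RB1, the retinoblastoma gene, held 21, 25 and 21 RPKM untreated and 14, 20 and 19 RPKM with palbociclib (limma adjusted p = 0.377). RBL1, which encodes p107 and is itself a target of E2F, held 12, 11 and 11 RPKM untreated and 5, 7 and 5 RPKM with palbociclib (limma adjusted p = 0.00948).

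Downstream, 11 of the 34 tested S phase targets of E2F were called lower with palbociclib (0.486% of all tested genes) and none higher. All 34 had a log2 fold change below 0, with a median of -0.73, beside 47.6% of all tested genes below 0 and a median of 0. With both agents 18 of 34 were called lower (4.28% of all tested genes), with a median of -0.59. With ATRA 2 of 34 were called lower, MCM4 and MCM10, with a median of -0.26. Of all tested genes ATRA called 1.94% lower and 4.72% in either direction. Where palbociclib was added to ATRA, the fit that did not pair replicate numbers called none of 34 (0% of all tested genes). All 34 lay below 0 (43.8% of all tested genes) with a median of -0.37, and 26 of 34 had an unadjusted limma p under 0.05 (3.67%). In the departure from additivity none of 34 was called (0% of all tested genes). There 0 of 34 lay below 0 (50.4% of all tested genes), with a median of 0.36. At an unadjusted limma p under 0.05 the departure gave 18 of 34 (3.02% of all tested genes). CHAF1A, a subunit of the chromatin assembly factor, fell from 21, 22 and 20 RPKM to 12, 12 and 11 RPKM with palbociclib (limma adjusted p = 7.36e-05). The helicase subunit MCM4 fell from 79, 80 and 82 RPKM to 40, 41 and 36 RPKM (limma adjusted p = 9.65e-05). MCM2, MCM3 and MCM10 also fell with palbociclib, each with a limma adjusted p of 0.000287. Of the 30 S phase genes with a promoter in the RefSeq table, 18 held a match to the motifs shown above for E2F1, E2F2 and E2F3, beside the same 3.99% of all genes. The same search matched 1 of 7 genes of cyclins E and A with CDK2 and F-box proteins. It matched 2 of 9 in the pocket protein list, 0 of 9 in the cyclin D list, 1 of 10 G2 and M targets and 2 of 12 E2F6 partners. Whether the motif goes with the fall was not tested.

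Of the 8 tested genes of cyclins E and A with CDK2 and F-box proteins, 3 were called lower with palbociclib (0.486% of all tested genes), and the median was -0.49. CCNE1, cyclin E1, fell from 15, 13 and 15 RPKM to 5 RPKM in each palbociclib library (log2 fold change -1.50, limma adjusted p = 7.36e-05). CDC25A, the phosphatase that activates CDK2, fell from 36, 35 and 34 RPKM to 18, 19 and 18 RPKM (limma adjusted p = 7.36e-05). SKP2, the ubiquitin ligase subunit that removes p27, fell from 43, 46 and 46 RPKM to 29, 32 and 30 RPKM (limma adjusted p = 0.000780). These 3 genes fell with ATRA alone too, with limma adjusted p-values of 3.37e-05 for CDC25A, 0.000320 for CCNE1 and 0.000225 for SKP2. Of all tested genes 1.94% were called lower with ATRA. CDK2 fell with both agents, from 19, 20 and 18 RPKM to 12, 12 and 10 RPKM (limma adjusted p = 0.000114), and it stood at 12, 13 and 11 RPKM with palbociclib (limma adjusted p = 0.00211).

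Of the 12 tested targets of G2 and M phase, none was called with palbociclib, ATRA or both agents, and the median with palbociclib was -0.13. At an unadjusted limma p under 0.05 there were 3 of 12 with palbociclib (17.4% of all tested genes), 2 of 12 with ATRA (33.1%) and 2 of 12 with both agents (40.5%). Of the 10 tested E2F6 partners of the Polycomb complex, none was called with palbociclib, where 2 of 10 had an unadjusted limma p under 0.05 (17.4% of all tested genes), and 1 fell with both agents (4.28% of all tested genes called lower). This was PCGF6, which went from 12, 11 and 11 RPKM to 8, 7 and 6 RPKM (limma adjusted p = 0.000608), and E2F6 itself was called in the same comparison.

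**Figure D4:**
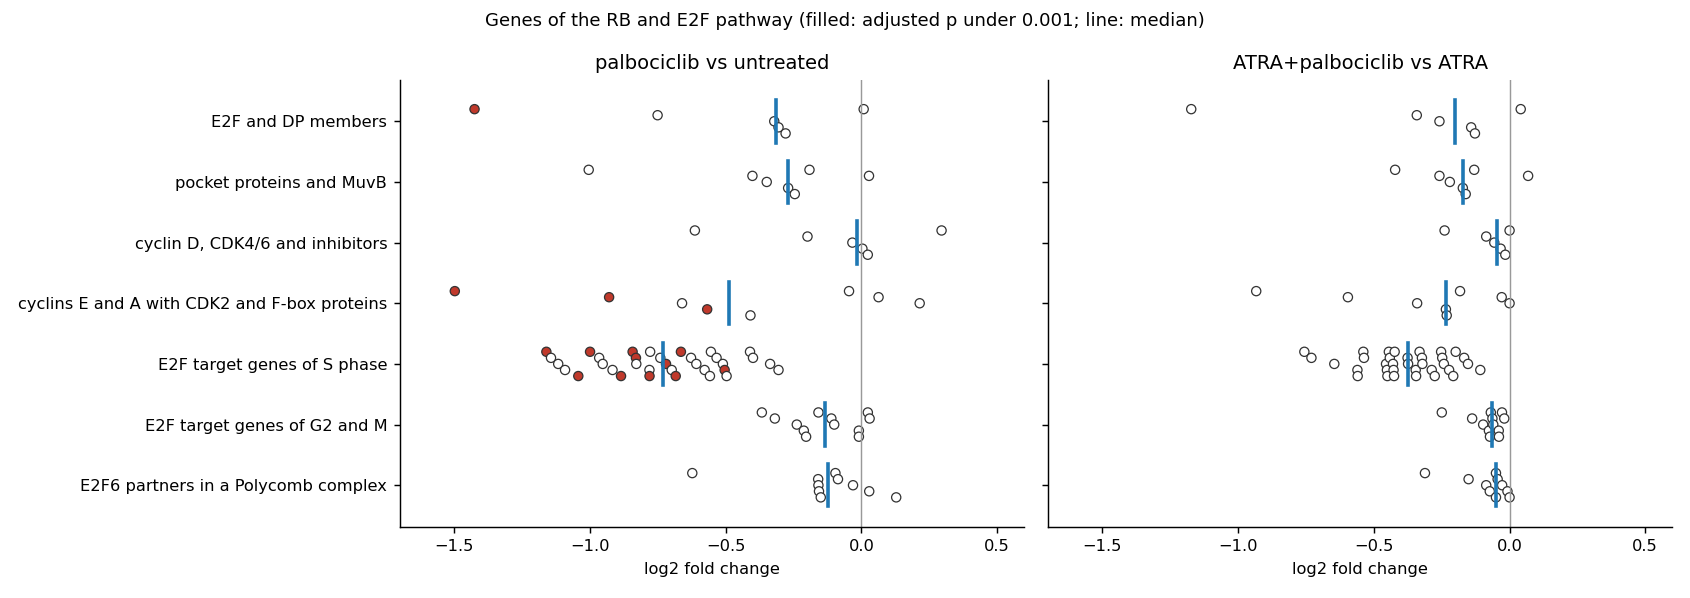
Log2 fold changes of every tested gene of the 6 pathway lists and of the 6 tested members, for palbociclib against untreated cells and for both agents against ATRA, with medians as lines and called genes filled. The S phase targets lay below 0 throughout, with medians of -0.73 for palbociclib alone and -0.37 where it was added to ATRA, while the G2 and M targets had medians of -0.13 and -0.07.

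The genes whose levels followed E2F1 most closely over the 12 libraries were CCNE1 (Pearson r = 0.976 on log2 values), MCM6 (0.973), MCM3 (0.973), MCM7 (0.972) and MSH6 (0.972). As a share of the untreated mean, E2F1 stood at 65.8% with ATRA, 36.8% with palbociclib and 28.9% with both agents. MSH6, a mismatch repair gene, stood at 57.7%, 36.5% and 30.8%, and CCNE1 at 58.1%, 34.9% and 30.2%. MCM7, a helicase subunit, followed the same order over a smaller range, at 84.3%, 70.2% and 69.1%. For E2F3 the closest genes were KPNB1 (r = 0.967), SUZ12 (0.961), ATAD5 (0.956), BLM (0.950) and RBL1 (0.950). Among the tested members E2F1 went with E2F6 (r = 0.876), TFDP1 (0.863) and E2F3 (0.834), and E2F4 and E2F8 had an r of -0.613. These values describe 12 libraries in 4 groups, in which any genes that differ between the groups go together.

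**Figure D5:**
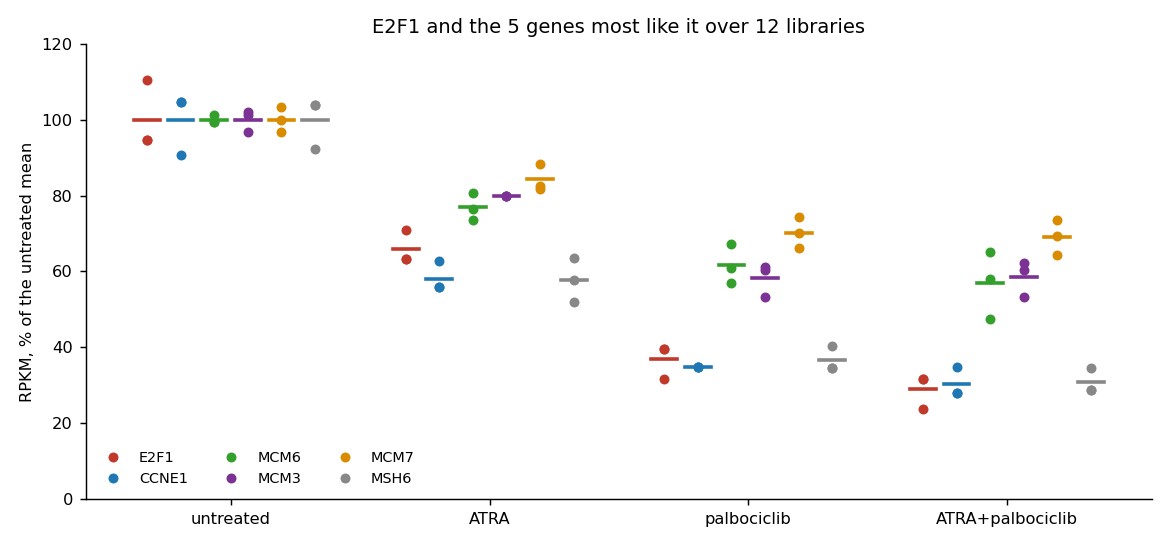
RPKM of E2F1 and the 5 genes most like it over 12 libraries, as a percent of each gene's untreated mean, by treatment, with points for libraries and lines for group means. E2F1, CCNE1 and MSH6 stood at 28.9% to 30.8% with both agents, and MCM3, MCM6 and MCM7 at 56.9% to 69.1%.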

How the data were processed

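RNA of 12 HL-60 libraries (3 per group) was sequenced by the authors on TruSeq poly(A) libraries, aligned with HISAT2 to hg38, and reads were assigned to genes by htseq-count with default options. Tool versions, the annotation and the strand of the library kit are not given in the sources used here. The authors deposited RPKM rounded to whole numbers, recorded here as a score. Read counts could not be recovered, so no counting error is given.

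Group means of log2(RPKM + 0.1) were estimated in 1 limma 3.58.1 fit (R 4.3.3) of the 12 libraries, with eBayes and a variance trend, for 7820 genes with at least 5 RPKM in at least 3 libraries. Fold changes are on that scale and understate changes of low genes. P-values were adjusted (Benjamini-Hochberg) within each of 8 comparisons, and a gene was called under 0.001. The 4 members below the limit were compared by exact permutation within the status of the other agent. The limit of 5 RPKM came from earlier work on these data, where it was chosen with results in view because rounding gives low genes identical replicates, and members and lists were also chosen with earlier results of these data known. All members were named, with list genes that passed with palbociclib (averaged or alone) or both agents, up to 6 a list, and the 5 genes most correlated with E2F1 or E2F3. Of the genes this rule names, 1 is not reported here. CDKN1A, the other untested genes of its list, RB1 and RBL1 were named after their values were seen. Same-numbered libraries of the treated groups deviated together (r = 0.438 to 0.908), those of untreated and treated groups less so (0.0453 to 0.367), so numbers were taken to pair the treated libraries only. Promoters came from RefSeq (GRCh38.p14) and coordinates from GENCODE 44. The script was tested on simulated data. Alternatives were other filters, pseudocounts, thresholds, scaling, a replicate block and leaving out libraries. Python 3.11.15 and matplotlib 3.10.9 made tables and plots.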

Additional observations from a re-analysis of the deposited data

How the results depend on the processing

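The count of members called at an adjusted p under 0.001 depended on the settings as follows. With ATRA it was 0, and 1 with a limit of 1 RPKM or no limit, where E2F5 enters, and 2 at an adjusted p under 0.05. With palbociclib it was 1, and 0 with only the 2 groups compared and 4 at 0.05, with 0 to 1 when libraries were left out in turn. With both agents it was 3, and 1 after median centring, 2 without a variance trend and 0 with the 2 groups alone, with 1 to 2 when libraries were left out, and 4 at 0.05 and with a limit of 1 RPKM or none. With both agents against ATRA it was 0, and 1 at 0.05. Averaged over the other agent it was 1 for palbociclib and 5 at 0.05, and 0 for ATRA, 1 with a limit of 1 RPKM or no limit and 3 at 0.05. Treating replicate numbers as a block for pairing gave 2 members for ATRA, E2F1 (adjusted p = 0.000918) and TFDP1 (0.000447), and 2 for ATRA averaged. With the block and 0.05 together the counts were 3 for ATRA, 5 for palbociclib, 5 for both agents, 1 for both agents against ATRA, 3 for both agents against palbociclib, 5 for palbociclib averaged and 5 for ATRA averaged. The share of all tested genes at that setting is not given here, so these counts cannot be read as a result about the members. The block changed no other count at 0.001. Of all tested genes, an adjusted p under 0.05 called 20.3% with ATRA, 4.07% with palbociclib, 30.4% with both agents and 0.115% with both agents against ATRA. It called 4.37% for palbociclib averaged and 28.4% for ATRA averaged. The block at 0.001 called 9.23% with ATRA, 1.06% with palbociclib, 15.4% with both agents and 16.1% for ATRA averaged. The limit of 1 RPKM called 3.68% of 14003 genes with ATRA, 5.42% with both agents and 6.27% for ATRA averaged. As a fold of the untreated ratio of activators to repressors, leaving out E2F4 gave 1.02 with ATRA, 0.946 with palbociclib and 0.931 with both agents, mean log2 values per gene, an alternative chosen after seeing the data, gave 1.15, 0.759 and 0.841, and summed log2 values gave 2.83, 0.854 and 1.43, sums that set 3 activators against 5 repressors and so depend on the number of genes. Sign changes were limited to values near 0 that were never called. With libraries left out in turn, E2F4 ranged from -0.0507 to 0.0459 on the log2 scale in palbociclib against untreated, from -0.0259 to 0.111 in both agents against ATRA, from -0.00868 to 0.0597 in palbociclib averaged and from -0.0344 to 0.102 in the departure from additivity (-0.00566 after median centring). E2F8 with ATRA ranged from -0.0778 to 0.211, E2F3 with both agents against palbociclib from -0.0165 to 0.0860 and E2F6 in the departure from -0.0393 to 0.0899. Of the compared member fold changes 959 kept direction and side of the threshold, 40 passed it, 36 lost it and 15 changed sign. Rounding to 1 RPKM limits E2F2, E2F5, E2F7 and TFDP2 most.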
